A study of Sus scrofa with 16 samples.

Results

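The miRNAs described here are the pig members of the miR-362, miR-500, miR-502, miR-532 and miR-660 group that the ovary count table names. They were picked by name, and 3 of the 1940 entries matched: ssc-miR-362, ssc-miR-500 and ssc-miR-532-5p. The table names 216 known miRNAs and holds 1724 predicted ones, and no entry was named miR-502 or miR-660. The group was proposed with the luteal difference between LH and LL already in view, so that difference is given below as a description, with no p for any member, and supports nothing. Small RNA was sequenced from ovarian tissue of 16 unrelated Canadian Large White sows, 4 in each of 4 groups, with 1 library per sow. LH (high fecundity) and LL (low fecundity) were sampled in the luteal phase on day 14 of the cycle, and FH and FL, likewise high and low, in the follicular phase on day 20. Fecundity was a record of litter size and no sow was treated, so other differences between the sows, parity among them, came with the groups. The parity records of LH and LL did not overlap.

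In mammals these miRNAs lie close together on the X chromosome, beside or within the gene CLCN5, which encodes a chloride and proton exchanger, and are thought to be cut from shared primary transcripts. Each hairpin of such a transcript gives short mature strands, and the bases near the 5′ end of a strand, the seed, pair with target mRNAs and lower their stability or translation. In the RefSeq gene table of Sscrofa11.1, the order along the pig X chromosome was USP27X, a deubiquitinase gene, then MIR532, MIR500, MIR362 and CLCN5.

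The authors' position table (Sscrofa10.2) gave 10 predicted entries in a window on the plus strand of the X chromosome, chosen by position. Their precursors overlapped to form 4 separate hairpins within 10889 bases. The positions of the 3 named miRNAs in Sscrofa10.2 were not looked up, so that the window holds them was not checked. These hairpins are shown because they are the only miRNAs of the window for which the sources used here hold sequences. They may share reads with the 3 named miRNAs, as described below for hairpin 2, so they are not a separate readout. Hairpin 1 lay at X:48632395-48632454, hairpin 2 at X:48639770-48639831, hairpin 3 at X:48640827-48640885 and hairpin 4 at X:48643223-48643283. No source used here gives these entries a miRNA name, so they keep their numbers. The predicted mature strand of 1 entry per hairpin follows, 5′ to 3′, with the seed (bases 2 to 8) in capitals.
NovelmiRNA-177, hairpin 1, 5′ arm: cAUCCCUUgcaugguggagggu
NovelmiRNA-1265, hairpin 2, 5′ arm: uAAUCCUUgcuaccugggugaga
NovelmiRNA-152, hairpin 3, 5′ arm: uACCCAUUgcauaucggaguug
NovelmiRNA-895, hairpin 4, 3′ arm: aUGCACCUgggcaaggauucag

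The predicted mature strands of the 4 hairpins had 4 different seeds. None of the 4 was the seed of a mature strand outside its own hairpin, among the 1700 predicted entries with a position. The other strands were not searched. Bases 2 to 8 of the other strand of hairpin 2, shown next, are the same as the seed of hairpin 4. The other strand of hairpin 2 and the mature strand of hairpin 4 held the same run of 19 bases, in capitals here.
NovelmiRNA-1265, hairpin 2, 3′ arm: gUGCACCUGGGCAAGGAUUCuga
NovelmiRNA-895, hairpin 4, 3′ arm: aUGCACCUGGGCAAGGAUUCag
A read of these 19 bases fits both hairpins, so the counts of hairpins 2 and 4 are uncertain. Hairpin 2 also had exactly the count of ssc-miR-500 in FH3 (440) and FH4 (834), so the deposited table may have counted the same reads for both. No other entry matched in every one of the 16 libraries the counts of ssc-miR-362, ssc-miR-500 or ssc-miR-532-5p.

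Library totals ranged from 8998496 to 37194836 counts. For a known miRNA, a count of 0 allowed a level of up to 0.101 to 0.339 CPM. This takes 3 counts and counting error only, since PCR copies were not marked. It does not cover the 0s of predicted entries, which are described below with the hairpins. CPM are counts scaled to a common library size, here after TMM normalization, in which the TMM factors were 1.19 to 1.74 in LL and 0.670 to 1.23 in the other groups. All 3 named miRNAs passed the filter on low counts. The 3 ovary miRNAs listed as a check of the tissue summed to 1213 to 3873 CPM in luteal and 75.2 to 1306 CPM in follicular ovaries, with ssc-miR-383 at 0 in some. The 5 listed miRNAs of ciliated or tubal epithelium were above 0 in all libraries. They summed to more than 5000 CPM in 3 libraries (LH4, FL2 and FL4), and results are given without these 3 where that changed them. The lists for liver, erythrocytes, leukocytes and neural tissue summed to 1.76 to 1363, 32.1 to 186, 185 to 891 and 18.3 to 176 CPM over the 16 libraries.

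The highest levels of all 3 miRNAs were found in LL. For ssc-miR-362, the 4 LL sows had 176, 167, 174 and 167 CPM (LL1 to LL4). The 4 LH sows had 106, 56.1, 112 and 60.1 CPM (LH1 to LH4). Each LL sow was above every LH sow, and the LL sows lay close together. Mean levels were 171 ± 4.75 CPM in LL and 83.6 ± 29.6 CPM in LH (SD, n = 4), a ratio of 2.04.

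For ssc-miR-500, the LL sows had 167, 192, 139 and 132 CPM. The LH sows had 97.6, 56.1, 109 and 57.8 CPM. Again no LH sow reached the lowest LL sow, and LH1 and LH3 were the higher pair among the LH sows, as they were for ssc-miR-362. Means were 158 ± 27.5 CPM in LL and 80.2 ± 27.3 CPM in LH (SD, n = 4), a ratio of 1.96.

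For ssc-miR-532-5p, the LL sows had 1212, 2372, 1268 and 1403 CPM. The LH sows had 1318, 856, 1220 and 660 CPM. Here the groups overlapped: LH1 lay above LL1 and LL3, and LL2 stood above the rest. Means were 1564 ± 545 CPM in LL and 1013 ± 308 CPM in LH (SD, n = 4), a ratio of 1.54. Scaled by library size only, the groups no longer overlapped.

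**Figure D1:**
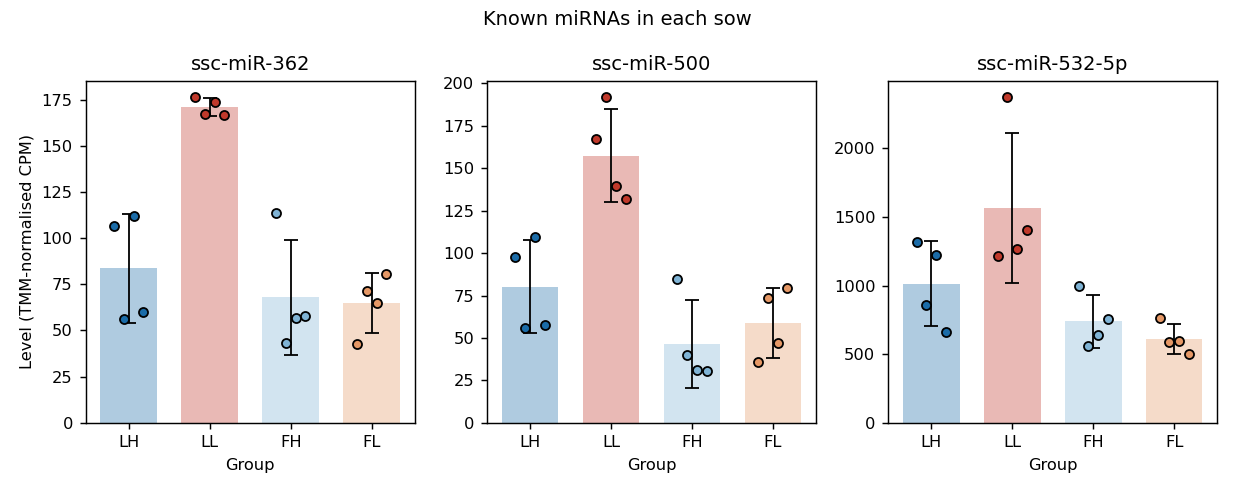
Level of each named miRNA in TMM-normalised CPM (vertical axis, from 0) by group (horizontal axis). Points are single sows, bars are means and lines are ± 1 SD (n = 4). The LL points for ssc-miR-362, 167 to 176 CPM, sit above all other sows, while for ssc-miR-532-5p LL2 stands apart at 2372 CPM.

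Fitted with edgeR over all entries tested in LH vs. LL, the log2 fold change of LL over LH was 1.07 for ssc-miR-362 (SE 0.305), 1.02 for ssc-miR-500 (SE 0.318) and 0.66 for ssc-miR-532-5p (SE 0.308). The study's threshold is an unadjusted P under 0.05 with at least a 1-unit log2 change. On this scale 2 of the 3 miRNAs passed it, ssc-miR-362 and ssc-miR-500, as did 6.63% of all entries with higher levels in LL. The same 2 did not overlap between the groups, as was so for 9.39% of all entries. Because this contrast stood behind the choice of the group, these counts describe it, and nothing is read from them. The median over the 3 was 1.02, the median over all entries tested was 0.15 and that over the known miRNAs 0.016. Both passing values lay close to the 1-unit limit. Without LH2, LH4, LL1 or LL3, or adjusting for the share of reads kept in cleaning, 0 of the 3 passed, and without LL2 1 did. Adjusting for parity also left 0 of 3, with log2 fold changes of 1.10 (SE 0.696), 1.38 (SE 0.692) and 1.38 (SE 0.653), so there the larger SEs and not the 1-unit limit ended the calls. Scaled by library size only, they were 1.66, 1.61 and 1.22 and 3 of 3 passed, but that scaling moved the median of all entries by 0.58 and the split of calls from 24 higher and 23 lower in LL to 57 and 11.

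Taken as a sum, the listed miRNAs of smooth muscle and stroma moved in the opposite direction, and they were not read singly. Their 4 members, all above 0 in every library, summed to 84507 to 135648 CPM in LL and 148611 to 246428 CPM in LH. The 6 striated muscle miRNAs, of which ssc-miR-208b was at 0 in some libraries, summed to 449 to 984 CPM in LL and 2155 to 3256 CPM in LH. Most of that sum was ssc-miR-1, which is typical of heart and skeletal muscle, with 468 ± 212 CPM in LL and 2220 ± 363 CPM in LH (SD, n = 4). Their part in the levels of the 3 miRNAs was not tested. In bulk tissue, fewer cells of a type and less of a miRNA per cell cannot be told apart.

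In the follicular phase, the 3 miRNAs did not differ detectably between FH and FL. For ssc-miR-362, the FH sows had 114, 43.3, 56.6 and 58.0 CPM (FH1 to FH4). The FL sows had 42.9, 71.2, 65.0 and 80.8 CPM (FL1 to FL4), all within the range of FH except FL1, which was just below it. The log2 fold change of FL over FH was −0.14 (SE 0.362, 95% interval −1.02 to 0.75, adjusted p = 0.903, edgeR quasi-likelihood test).

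For ssc-miR-500, the FH sows had 84.5, 39.8, 31.0 and 30.3 CPM. The FL sows had 36.0, 73.3, 47.0 and 79.3 CPM. FH1 was the highest of all 8, and the other 3 FH sows were below FL2, FL3 and FL4. The log2 fold change was 0.25 (SE 0.440, 95% interval −0.83 to 1.32, adjusted p = 0.874, edgeR).

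For ssc-miR-532-5p, the FH sows had 1000.2, 557, 640 and 756 CPM. The FL sows had 761, 586, 596 and 503 CPM, overlapping those of FH. The log2 fold change was −0.27 (SE 0.306, 95% interval −1.02 to 0.48, adjusted p = 0.797, edgeR).

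By edgeR 0 of the 3 passed the threshold in FH vs. FL, 0 had an unadjusted P under 0.05, and DESeq2 gave the same 2 counts. Of all 307 entries tested, 5.54% passed with higher levels in FL. Whether the effect of fecundity differed between the phases was not tested, since that test would use the contrast behind the choice of the group.

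Between the phases, all 3 miRNAs had higher mean levels in the luteal ovary. The order of the group means was LL, LH, FH, FL for ssc-miR-362 and ssc-miR-532-5p, and LL, LH, FL, FH for ssc-miR-500. LL and FL did not overlap for any of the 3, and 11.2% of the 445 entries tested between the phases were likewise higher in LL without overlap. LL was also part of the contrast behind the choice of the group, so nothing is read from this. The ratios of LL over FL means were 2.63 for ssc-miR-362, 2.68 for ssc-miR-500 and 2.56 for ssc-miR-532-5p. Within the high fecundity sows, LH and FH overlapped for all 3, with ratios of 1.23, 1.73 and 1.37. Neighbours in that order other than LL and LH overlapped for every miRNA, and for ssc-miR-532-5p those overlapped too.

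The phases were tested in a model with fecundity as a second term. Its phase term is not the difference between LH and LL. The LL libraries enter it and lie furthest from the follicular ones, so it is not free of the contrast behind the choice of the group. The log2 fold change of luteal over follicular was 1.10 for ssc-miR-500 (SE 0.298, adjusted p = 0.0235, edgeR), which passed both thresholds. It was 0.91 for ssc-miR-532-5p (SE 0.237, adjusted p = 0.0200, edgeR), which passed the adjusted threshold of 0.05 but not the 1-unit limit. It was 0.85 for ssc-miR-362 (SE 0.293, adjusted p = 0.0653, edgeR), which passed neither. Thus 1 of 3 rose by the study's threshold, where 12.1% of the 445 entries tested did so, and 2 of 3 by adjusted p, where 8.54% did so. The median of the 3 was 0.91, against 0.17 over all entries and −0.015 over the known miRNAs. By DESeq2, adjusted p values were 0.000331 to 0.00534 and 3 of 3 passed the adjusted threshold. With no filter on low counts 0 of 3 passed either threshold (adjusted p = 0.214 to 0.251, edgeR). Leaving out FL3 ended both calls of ssc-miR-500 (log2 fold change 0.99, adjusted p = 0.0699) and the adjusted call of ssc-miR-532-5p (adjusted p = 0.0812). Over all 16 single leave-outs the adjusted p stayed under 0.05 in 13 for ssc-miR-500, 11 for ssc-miR-532-5p and 3 for ssc-miR-362. Without LH4, FL2 and FL4 together, it was 0.0432 for ssc-miR-500, 0.0659 for ssc-miR-532-5p and 0.111 for ssc-miR-362 (edgeR).

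The sum of the smooth muscle and stroma miRNAs also moved with phase, with overlap, from 84507 to 246428 CPM in luteal and 197995 to 488813 CPM in follicular ovaries. Their part in the phase difference was not tested.

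**Figure D2:**
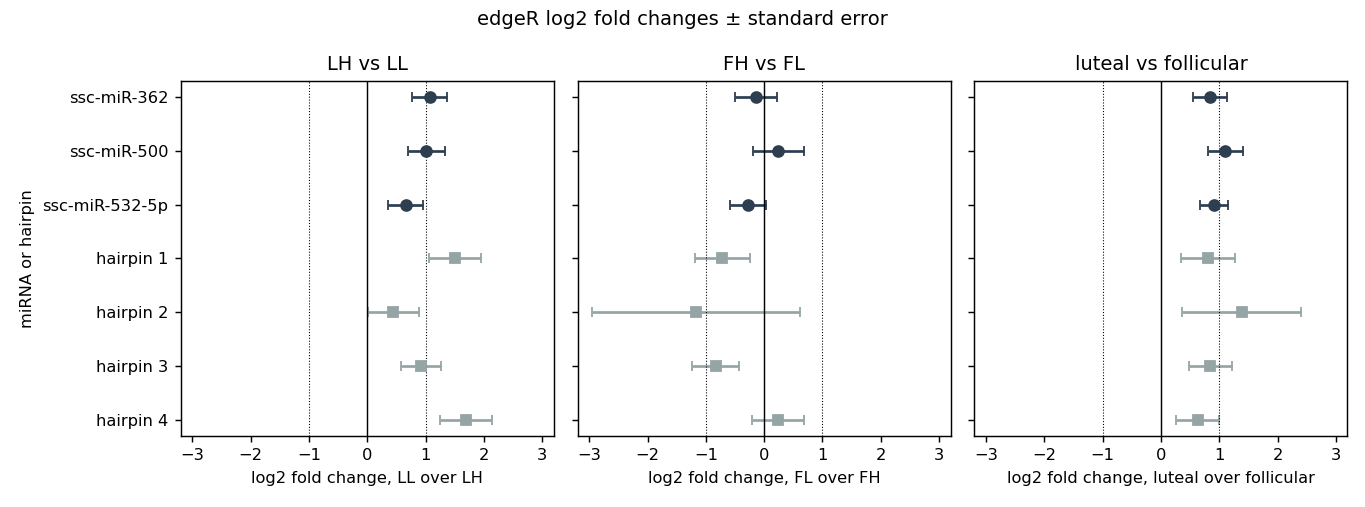
Log2 fold changes with ± 1 SE from edgeR (horizontal axis) for the 3 named miRNAs (circles) and the 4 predicted hairpins (squares) in LH vs. LL, FH vs. FL and luteal vs. follicular. Dotted lines mark a change of 1 log2 unit. All 7 values are above 0 in LH vs. LL and between the phases, while in FH vs. FL they lie between −1.18 and 0.25. The value of −1.18 is that of hairpin 2 and takes in its 0s in FL2 and FL3. The phase values take in LL, and the means of hairpins 1 and 4 in LH were not above those in FH.

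The 4 predicted hairpins were read in the same libraries. In the deposited table each hairpin was split over 2 to 4 entries that differ by a few bases at their ends, and in no library was more than 1 entry of a hairpin above 0. NovelmiRNA-177 and NovelmiRNA-556 of hairpin 1, for example, were above 0 in 11 and 5 libraries, none of them shared. Tested entry by entry, the values therefore mixed the level with the choice of entry, and the entries of a hairpin were added up. So merged, hairpins 1, 3 and 4 were above 0 in 16 libraries and hairpin 2 in 14, with FL2 and FL3 at 0. In FL2 and FL3, ssc-miR-500 had 752 and 495 counts. Whether hairpin 2 was absent there or was not predicted in those libraries cannot be told apart.

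In the luteal phase, hairpin 1 had 18.1, 15.9, 15.1 and 13.9 CPM in LL and 7.53, 2.84, 7.44 and 4.85 CPM in LH. Hairpin 4 had 31.3, 51.7, 23.7 and 17.8 CPM in LL and 11.8, 7.46, 11.0 and 8.85 CPM in LH. Hairpin 3 had 123, 169, 124 and 138 CPM in LL and 84.5, 39.4, 112 and 63.8 CPM in LH. In these 3 of 4 hairpins every LL sow was above every LH sow, as was so for 9.39% of all entries before merging. Hairpin 2 overlapped, with 68.2 to 79.3 CPM in LL and 24.5 to 110 CPM in LH, where LH3 was the highest of all 8. The log2 fold changes of LL over LH were 1.51 (SE 0.447), 0.45 (SE 0.436), 0.92 (SE 0.341) and 1.70 (SE 0.444) for hairpins 1 to 4. By these fits hairpins 1 and 4 passed the study's threshold, beside 6.63% of all entries in the fit made before merging. Since these hairpins too belong to the contrast behind the choice, nothing is read from their passing.

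**Figure D3:**
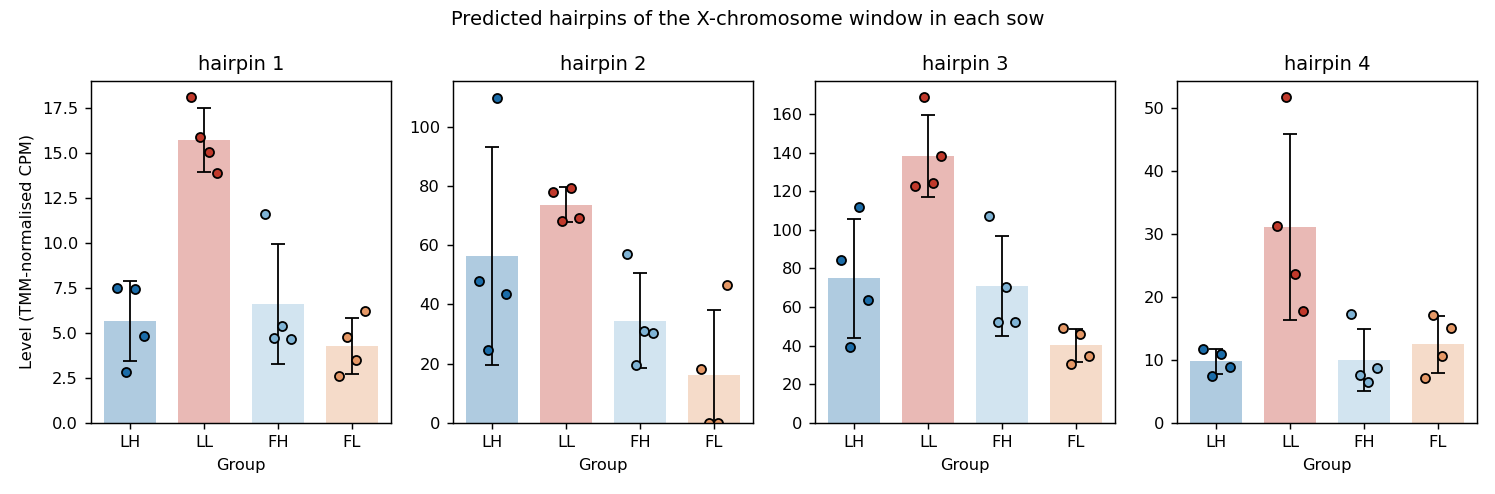
Level of each predicted hairpin in TMM-normalised CPM (vertical axis, from 0) by group (horizontal axis). Points are single sows, bars are means and lines are ± 1 SD (n = 4). The LL sows are above all LH sows for hairpins 1, 3 and 4, and hairpin 2 is at 0 in FL2 and FL3.

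No hairpin passed the threshold in FH vs. FL by edgeR, and 0 of 4 had an unadjusted P under 0.05, against 1 of 4 by DESeq2. That one was hairpin 3, with 107, 52.5, 70.4 and 52.4 CPM in FH and 48.9, 30.6, 46.0 and 34.8 CPM in FL. Its groups did not overlap, as was so with higher levels in FH for 1.95% of all entries before merging. Scaled by library size only, its groups did overlap. The adjusted p was 0.645 by edgeR (log2 fold change −0.83, SE 0.396) and 0.344 by DESeq2. Its mean was lower in FL than in FH, while in the luteal phase its mean was higher in LL than in LH. Between the phases 0 of 4 hairpins passed by edgeR, where 11.8% of the entries tested with the hairpins merged rose, and 1 of 4, hairpin 3 again, had an unadjusted P under 0.05 (log2 fold change 0.85, SE 0.364, adjusted p = 0.131). Without LH2 or without FH1, hairpins 1 and 3 passed the study's threshold, and without LH4 hairpin 3 did, when 16.7%, 17.7% and 16.4% of the entries tested rose. By DESeq2 it passed the adjusted threshold (adjusted p = 0.0330). Hairpin 2 was too variable to place, with a log2 fold change of 1.39 and an SE of 1.02. Its FL mean takes in the 0s of FL2 and FL3. The ratios of LL over FL means were 3.68, 4.55, 3.45 and 2.49 for hairpins 1 to 4. Those of LH over FH means were 0.858, 1.63, 1.06 and 0.978, and LH and FH overlapped for each hairpin. For hairpins 1 and 4 the higher luteal mean thus came from LL, which was part of the contrast behind the choice.

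Ratios of 2 miRNAs within a library do not depend on scaling. The ratio of ssc-miR-362 to ssc-miR-500 counts ranged from 0.871 to 1.91 over the 16 libraries, with a median of 1.09. That of ssc-miR-362 to ssc-miR-532-5p ranged from 0.0564 to 0.161 and that of ssc-miR-500 to ssc-miR-532-5p from 0.0401 to 0.158. None of the 3 ratios differed between FH and FL, or between the phases, beyond the variation among sows (two-sided exact permutation tests, adjusted p = 0.343 to 0.514 and 0.194 to 0.988, 6 tests). With 4 sows against 4, the smallest p such a test allows before adjustment is 0.0286. A single ratio at that value would stay above 0.05 after adjustment over the 3 ratios. The test thus had little room to show a difference between FH and FL. The smallest p between the phases was that of ssc-miR-362 over ssc-miR-500, with a mean log2 ratio of 0.0935 ± 0.174 in luteal and 0.382 ± 0.366 in follicular ovaries (SD, n = 8, exact permutation p = 0.0648). FH had the highest mean of this ratio, 0.588 ± 0.383, and LH the lowest, 0.0534 ± 0.0523 (SD, n = 4).

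Whether the 3 miRNAs vary together from sow to sow was asked with each sow's deviation from its group mean, which removes the difference between groups. The deviations of ssc-miR-362 and ssc-miR-500 moved together, with Pearson's r = 0.87 (permutation within groups, p = 0.00451, adjusted over 3 pairs 0.0135) and Spearman's rho = 0.85 (permutation p = 0.00436, adjusted 0.0131). Without FH1 and FL1, the libraries farthest out, r was 0.77. The permutation p did not stay under 0.05 after adjustment without FH1 alone (r = 0.78, adjusted p = 0.0920), without LH4, FL2 and FL4 (r = 0.84, adjusted p = 0.0589), or within the luteal (r = 0.89, adjusted p = 0.168) or the follicular libraries (r = 0.86, adjusted p = 0.0935).

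For the pairs with ssc-miR-532-5p the correlations did not pass. With ssc-miR-362, r was 0.46 (permutation p = 0.106, adjusted 0.116) and rho 0.36 (permutation p = 0.216). With ssc-miR-500, r was 0.43 (permutation p = 0.116, adjusted 0.116) and rho 0.21 (permutation p = 0.472). Without the 2 libraries farthest out, r was 0.53 and 0.20. FL1 went against the rest: without it r was 0.67 and 0.63, and all 3 pairs passed (permutation, adjusted p = 0.0335). With CPM scaled by library size only, r was 0.93, 0.72 and 0.72 for the 3 pairs and all passed. Any scaling factor is shared by all miRNAs of a library, so these points are not free of it.

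**Figure D4:**
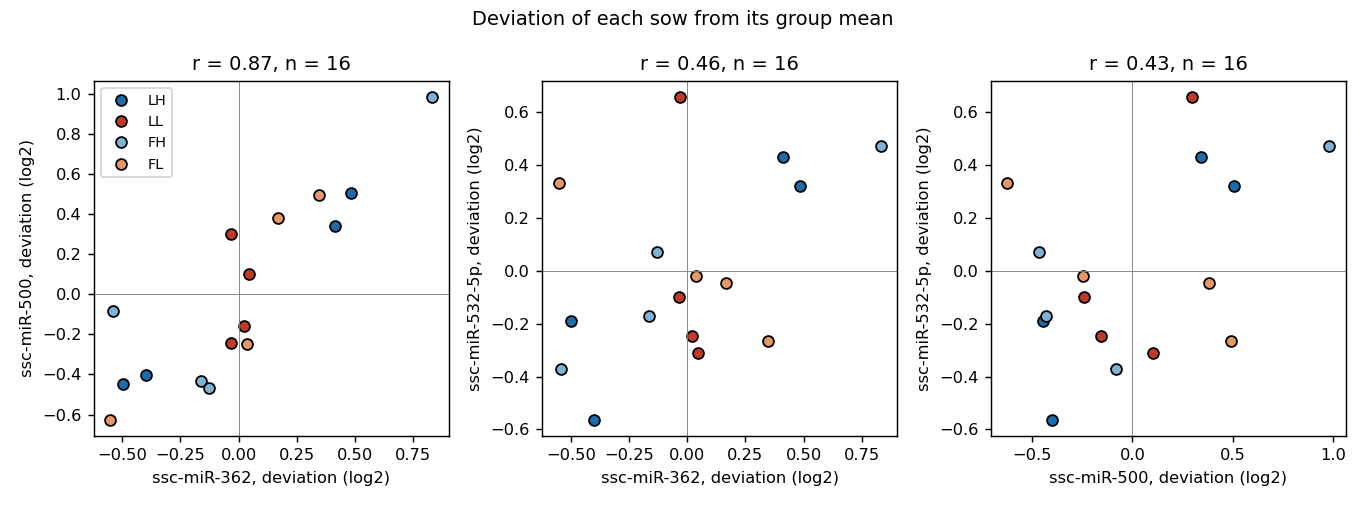
Deviation of each sow from its group mean, in log2(CPM + 1), for the 3 pairs of named miRNAs, with Pearson's r above each panel (n = 16). Colours mark the 4 groups. The points of ssc-miR-362 and ssc-miR-500 follow a line (r = 0.87), and those of the pairs with ssc-miR-532-5p scatter (r = 0.46 and 0.43).

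Other known miRNAs were as close to the 3 or closer. Among 199 other known miRNAs, ssc-miR-432-5p was most like ssc-miR-362 (r = 0.90, n = 16), ahead of ssc-miR-500, with ssc-miR-493-5p next (r = 0.86). For ssc-miR-500 the closest were ssc-miR-432-5p (r = 0.92), ssc-miR-425-5p (r = 0.91) and ssc-miR-127 (r = 0.88), and ssc-miR-362 ranked 5. In the list of ssc-miR-532-5p, headed by ssc-miR-202-5p (r = 0.72), ssc-miR-450b-5p (r = 0.70) and ssc-miR-139-5p (r = 0.70), ssc-miR-362 ranked 24 and ssc-miR-500 ranked 32. Over the 19896 pairs of known miRNAs the median r was 0.051 and the upper quartile 0.34. For comparison, the 6 pairs among ssc-miR-450a, ssc-miR-450b-5p, ssc-miR-450c-5p and ssc-miR-542-5p, which belong to another X-chromosome group, had r of 0.32 to 0.98 with a median of 0.44.

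The hairpins were set against the 3 miRNAs in 12 pairings, chosen after the values were known. Hairpin 1 followed ssc-miR-362 (r = 0.93, rho = 0.89, permutation p = 0.0002, adjusted 0.0012) and ssc-miR-500 (r = 0.92, rho = 0.91, permutation p = 0.00057, adjusted 0.00228). Hairpin 4 followed the same pair, with r = 0.69 and rho = 0.73 for ssc-miR-362 (permutation p = 0.00257, adjusted 0.00771) and r = 0.85 and rho = 0.78 for ssc-miR-500 (permutation p = 0.0002, adjusted 0.0012). Hairpin 3 followed ssc-miR-532-5p, with r = 0.68 and rho = 0.65 (permutation p = 0.0118, adjusted 0.0283). The other 7 pairings had adjusted permutation p of 0.146 to 0.523. Those of hairpin 2 take in its 0s in FL2 and FL3. Without the 2 libraries farthest out, r was 0.88 and 0.86 for hairpin 1, 0.50 and 0.82 for hairpin 4 and 0.60 for hairpin 3. Whether one miRNA followed a hairpin more closely than another did was not tested. Reads may have been counted for both hairpins 2 and 4, or for both hairpin 2 and ssc-miR-500. The scaling factor of a library is also shared by all its values. The part of either in these correlations was not tested.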

How the data were processed

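Small RNA libraries from 16 ovaries (4 sows per group, groups from the sample labels) were analysed from raw counts. The authors deposited these counts per miRNA without normalization or filtering. According to the methods they trimmed reads with Trimmomatic, mapped them to Sscrofa10.2 with Bowtie 2 (2.1.0) and predicted further miRNAs with miRDeep. The submitters' notes also name DESeq2. How reads were assigned to miRNAs is not given in the sources used here.

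Counts were fitted with the edgeR package 4.0.16 under R 4.3.3 (quasi-likelihood F test, TMM, count minimum 10 and total 15) over all entries of each comparison, with Benjamini-Hochberg adjustment. DESeq2 1.42.0 was an alternative. The fits were tested on simulated data. SE is the log2 fold change over the root of F, and 95% intervals use 6 residual degrees of freedom. The P values also use the prior degrees of freedom of the fit, so an interval and its P are not the same test. Ratios used counts + 1, and correlations log2(CPM + 1) with 100000 resamples. P values set a difference or a correlation against the variation among sows. With 1 library per sow, variation between sows and between libraries cannot be told apart. Parity and clean read share came from the supplementary records and served as covariates only.

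The miRNAs and lists were chosen with earlier results of these data known. Named are the entries matched by name, the predicted entries of the X window, the 3 known miRNAs most like each member, and 4 miRNAs of another X-chromosome group. Sequences and positions are from the authors' position table. It was not possible to search for predicted entries that share a seed with the 3 named miRNAs, whose mature sequences were not used here.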

Additional observations from a re-analysis of the deposited data

Results flagged for a closer look

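In each group of 4 sows, the 3 named miRNAs and 4 hairpins were screened for a sow standing far from the other 3, by Dixon's gap over range at its 95% critical value for 4 samples. Of the 28 sets checked, 2 had such a sow, and chance alone gives about 1 in 20. For ssc-miR-532-5p, LL2 had 2372 CPM against 1212 to 1403 CPM in the other LL sows (gap over range 0.836). For hairpin 1, FH1 had 11.6 CPM against 4.69 to 5.36 CPM in the other FH sows (0.903). Without LL2 the log2 fold change of ssc-miR-532-5p from LH to LL was 0.31, and between the phases it was 0.75. Without FH1, 2 of the 4 hairpins passed the threshold between the phases, against 0, when 17.7% of the entries tested rose, against 11.8%.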

How the results depend on the processing

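The contrast of LH and LL stood behind the choice of the group, so its counts are descriptions. Against 2 of 3 named miRNAs past the threshold there (6.63% of all entries), 3 passed with library size only, 0 with no filter, after adjusting for parity or for clean read share, or without LH4, FL2 and FL4 (added after seeing the data), and 1 with at least 10 counts in 4 libraries or all 16 libraries in 1 fit, with 0 to 2 in single leave-outs. Against 1 of 3 between the phases, 3 passed with library size only and 0 with no filter, with 0 to 2 in single leave-outs. In FH vs. FL it was 0 of 3 throughout. For the hairpins, entries taken singly gave 0 in LH vs. LL against 2 (2 to 3 in single leave-outs), and 1 between the phases against 0, where single leave-outs gave 0 to 2. Of the ratios, 0 of 6 passed under the 17 alternatives run. Of the 3 pairs of deviations, 1 passed as reported, 3 with library size CPM, 0 within the luteal, within the follicular and without LH4, FL2 and FL4, and 0 to 3 in single leave-outs. In FH vs. FL the sign turned for ssc-miR-362 with library size only (0.22) and in single leave-outs (−0.22 to 0.21), and for ssc-miR-500 with parity (−0.21), with the clean read share (−0.040) and without LH4, FL2 and FL4 (−0.14), against 0.11 to 0.67 in single leave-outs. None of these passed a threshold, and the cause was not tested.

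Entries past the threshold numbered 47 for LH vs. LL, 19 for FH vs. FL and 88 between the phases, and 158, 93 and 307 with no filter. In LH vs. LL they were 14 with the clean read share and 33 to 94 in single leave-outs. In FH vs. FL they were 4 with a replicate block, 5 with parity, 6 with the clean read share, 7 without FL2 and FL4, 37 with all 16 libraries in 1 fit and 11 to 43 in single leave-outs. Between the phases they were 145 without LH4, FL2 and FL4 and 100 to 136 in single leave-outs. Scaling by library size only moved the split of luteal higher and lower calls from 54 and 34 to 81 and 17, and the median of all entries by 0.38 (0.32 in FH vs. FL).

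With the replicate block, the log2 fold changes of ssc-miR-362, ssc-miR-500 and ssc-miR-532-5p were 1.12, 1.04 and 0.64 between LH and LL, −0.037, 0.38 and −0.30 between FH and FL, and 0.84, 1.11 and 0.91 between the phases, and the number of the 3 past the threshold stayed 2, 0 and 1. All entries past it numbered 32 in LH vs. LL and 95 between the phases. The hairpins, ratios and deviations were not fitted with the block. Deviations of same-numbered sows correlated from −0.45 to 0.31, and 3 of 8 luteal and 2 of 8 follicular sows correlated best with their own number. No clear pairing by number was seen, but with so few sows per group this check cannot exclude one.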
